A study of Mus musculus with 8 samples.

Results

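Of the 35560 genes that the array could name or identify, 8 were examined here: the arterial genes *Efnb2*, *Efna1*, *Unc5b*, *Gja4* and *Gja5*, the venous genes *Ephb4* and *Nr2f2*, and the guidance receptor gene *Plxnd1*. The rule that took them used their names and no measured value, although the names were picked with earlier results of these data known, and every one of their 13 probes among 55681 was followed. The profiles came from single endocardium cells, the inner lining cells of the heart, taken from mouse embryos at E8.5 with 9 somites. Each of 8 Agilent arrays was hybridized with RNA made from the amplified cDNA of 1 cell, 4 WT and 4 *Sox17* KO. All cells carried 2 floxed *Sox17* alleles (Mesp1+/+ Sox17flox/flox for WT, Mesp1Cre/+ Sox17flox/flox for KO), and only the KO cells carried *Mesp1*-Cre, which deletes in the mesoderm that expresses *Mesp1* and not in the endocardium alone. The question was whether genes that mark arterial or venous endothelium differed between the genotypes before the heart looks abnormal.

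Arterial and venous endothelial cells carry different surface proteins before and after blood flow begins. Ephrin-B2 is the membrane ligand that marks arteries, and its receptor EphB4 marks veins, so that the pair meets at the border between both vessel types. Arterial cells also join each other through gap junctions built of the connexins GJA4 and GJA5 and carry the netrin receptor UNC5B, under the influence of NOTCH and SOXF factors, whereas the nuclear receptor COUP-TFII, encoded by *Nr2f2*, holds venous identity by restraining NOTCH signaling. The endocardium is an endothelium of its own kind, and markers of both sides are known from it.

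Between 11370 and 18175 probes were well above background in a cell by the scanner software, and 7570 were so in all 8. *Sox17* itself gave no check of the genotypes, since none of the 16 readings of its 2 probes was well above background and all lay at scaled signals of 1.09 to 6.18. Of 10 endocardial and endothelial markers, 7 to 10 were well above background in WT and 6 to 9 in KO cells, whereas the 5 endoderm markers were so in no cell. Of 5 blood markers, 1 was well above background in each of WT cell 1, WT cell 2 and KO cell 4, and none exceeded the floor in any cell. Cardiomyocyte markers were also well above background, 3 to 7 of 9 in WT and 3 to 7 of 9 in KO cells, with a log2 summed signal of 8.31 to 15.06 and 9.97 to 15.57. The count of 7 was reached in WT cell 2 (summed signal 15.06) and KO cell 4 (14.82) only, while the highest summed signal was that of KO cell 1. Both WT cell 2 and KO cell 4 also had 8 of the 10 endocardial and endothelial markers well above background. Each cell had 2 of 3 smooth muscle markers well above background, with the highest log2 summed signal in WT cell 2 (13.81) and KO cell 4 (12.92), against 5.84 to 8.07 in the others. Nearly all of that signal in these 2 cells came from 1 marker, *Acta2*, at 13.80 and 12.86. *Cnn1* was at the floor in all 8 cells, and *Tagln* read 6.10 in WT cell 2 and 8.22 in KO cell 4, against 7.60 in WT cell 1. Over 26833 probes the median Pearson r was 0.714 between cells of the same genotype and 0.719 between cells of different genotypes. The arrays shared 1 slide, but WT and KO lay in different rows of it, and row and genotype cannot be told apart. No label says which embryo a cell came from, so that each genotype stands for 1 sample and no p-value is given.

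Values are the log2 of the signal after each array was scaled to a common level, with signals under 50 set to that floor, which is 5.64 on the log2 scale. Several cells lay at the floor for most of these genes and cannot be ranked among themselves there. A difference is the mean log2 value of KO cells minus that of WT cells, set against the pooled SD between cells of the same genotype. The amount of RNA in a cell and the yield of its amplification cannot be told apart in such values.

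The arterial genes were detected unevenly from cell to cell, and each of the 5 had a higher mean in KO than in WT cells. The share was 55.5% of the 14595 genes above the floor in any cell, as all 5 were. It was 42.3% of the 19142 genes well above background in any cell, of which 4547 were tied at the floor. Of the 5, *Gja4* and *Efna1* were at least 5-fold higher in KO cells. So were 652 of the 14595 genes above the floor in any cell, which is 3.41% of the 19142. The venous genes showed no such difference in the probe used for each, since *Ephb4* differed by 0.32 and *Nr2f2* by 0.00. The value of *Nr2f2* was set by the floor, under which all its readings lay, and the other *Ephb4* probe differed by -2.63. The median difference was 2.06 over the 5 arterial genes, 0.16 over the 2 venous genes and 0.09 over the 14595 genes above the floor in any cell. The arterial median was the value of 1 gene, *Unc5b*, whose pooled SD was 3.89. The venous median was the midpoint of the *Ephb4* value and the 0.00 that the floor set for *Nr2f2*. These medians therefore do not compare arterial with venous genes as groups. With the probes of each gene averaged, the arterial median was 2.06 and the venous median -0.58. In none of the 8 genes did the WT and KO cells separate without overlap, which 1.46% of all genes did. None was at least 5-fold lower in KO cells, against 3.43% of all genes.

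**Figure D1:**
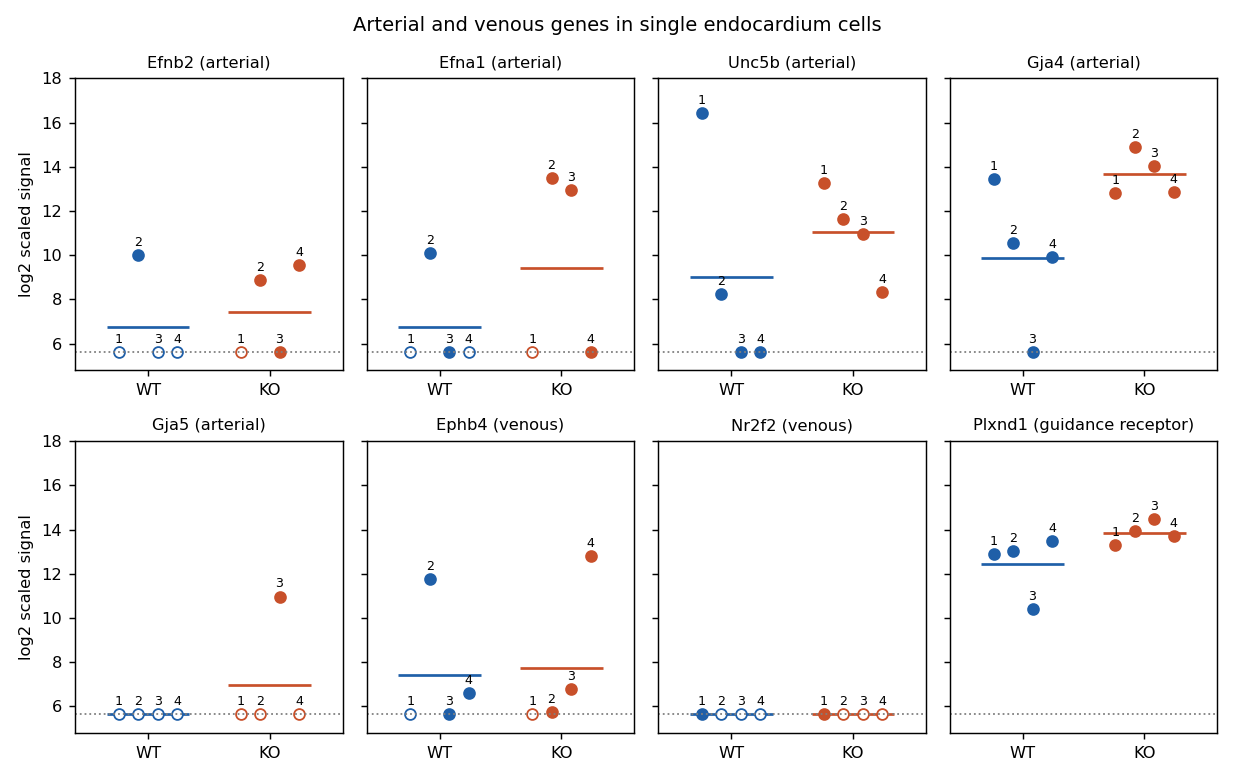
The log2 scaled signal of each gene (vertical axis, 1 probe per gene) in the 4 WT cells (blue) and 4 KO cells (orange), numbered by cell, with filled points well above background, open points not, horizontal bars for genotype means and a dotted line at the floor of 5.64. The 4 KO cells lie together at 12.81 to 14.92 for *Gja4*, while 3 of the 4 WT cells lie at or below 10.56.

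*Gja4*, which encodes a gap junction protein of arterial endothelium, had the largest difference of the 8 genes. Its probe lies at chr4:126988848-126988907 on the minus strand of mm9 (NM_008120), and it was well above background in all 8 cells. Because the difference rests on this single probe, the opening bases of its sequence are shown.
Gja4 probe: acccagcgccaagttgactttcgagcctcc
The log2 values were 13.44, 10.56, 5.64 and 9.94 in WT cells 1 to 4. They were 12.81, 14.92, 14.05 and 12.88 in KO cells 1 to 4. WT cell 1 thus lay within the range of the KO cells, and the other 3 WT cells lay below every KO cell. The means were 9.89 ± 3.22 (SD, n = 4 cells) in WT and 13.66 ± 1.01 (SD, n = 4 cells) in KO, a difference of 3.77 or 13.6-fold with a pooled SD of 2.38. The difference was 2.35 without WT cell 3, the WT cell at the floor, and 4.95 without WT cell 1.

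*Gja5* encodes the other main connexin of arterial endothelium. Its probe at chr3:96857349-96857408 on the plus strand (NM_008121) was at the floor in all 4 WT cells and in KO cells 1, 2 and 4, and it read 10.97 in KO cell 3. KO cell 3 was the only cell in which this probe was well above background. The mean was 6.98 in KO cells against the floor in WT cells, a difference of 1.33 or 2.52-fold. KO cells 1, 2 and 4 were set to the floor as well, so the floor sets the size. The difference was 0.83 with a floor of 200 and 1.91 with a floor of 10. It rests on KO cell 3, without which the difference was 0.00. A second probe of *Gja5* at chr3:96836336-96836395 was well above background in no cell. The remaining probe at chr3:96881280-96881339, designed on the cDNA AK038780, was well above background in all 8 cells, but its scaled signals of 13.2 to 37.9 in WT and 20.8 to 47.3 in KO cells all lay under the floor. The 3 probes lie 21013 and 23931 bases apart in genome order. Both connexins were thus above the floor together in 1 cell, KO cell 3.

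*Efna1* encodes ephrin-A1, a membrane-anchored ligand of EphA receptors. The probe at chr3:89075703-89075762 on the minus strand (NM_010107) read 5.64, 10.10, 5.64 and 5.64 in WT cells 1 to 4. It read 5.64, 13.50, 12.95 and 5.64 in KO cells 1 to 4. The gene was thus above the floor in 1 WT and 2 KO cells, and the 2 KO cells were both higher than the WT cell. The means were 6.76 ± 2.23 (SD, n = 4) and 9.43 ± 4.38 (SD, n = 4), a difference of 2.68 or 6.39-fold with a pooled SD of 3.47. Since cells of both genotypes were at the floor, the size depends on it. The difference was 2.18, under 5-fold, with a floor of 200 and 3.15 with a floor of 10. Without KO cell 2 the difference was 1.32, and without KO cell 3 it was also under 5-fold. Without both WT cell 2 and KO cell 4, the cells with the highest *Acta2* signal, it was 5.05.

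*Efnb2*, the ephrin that marks arteries, was above the floor in few cells. The probe at chr8:8618177-8618236 on the minus strand (NM_010111) read 10.01 in WT cell 2. Its values were 8.89 and 9.54 in KO cells 2 and 4. It was at the floor in the other 5 cells, although in KO cell 3 it was still well above background. The single WT cell with a signal was higher than both KO cells with one. The means were 6.73 ± 2.18 (SD, n = 4) and 7.43 ± 2.08 (SD, n = 4), a difference of 0.70 against a pooled SD of 2.13. The difference was -0.01 without KO cell 4 and 1.79 without WT cell 2. A second probe of *Efnb2*, 2249 bases upstream at chr8:8620426-8620485, was well above background in no cell.

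*Unc5b*, the netrin receptor gene of arterial and tip endothelial cells, was well above background in all 8 cells. The probe at chr10:60225398-60225457 on the minus strand (NM_029770) read 16.42, 8.27, 5.64 and 5.64 in WT cells 1 to 4. It read 13.26, 11.64, 10.97 and 8.33 in KO cells 1 to 4. WT cell 1 had the highest value of all cells, and WT cells 3 and 4, at the floor, had the lowest. The means were 8.99 ± 5.10 (SD, n = 4) and 11.05 ± 2.05 (SD, n = 4), a difference of 2.06 or 4.16-fold, less than the pooled SD of 3.89. It was 0.94 without WT cell 3 or WT cell 4, 1.32 without KO cell 1, and 4.53 without WT cell 1. With a floor of 200 the difference was 1.06, and with a floor of 10 it was 2.85.

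**Figure D2:**
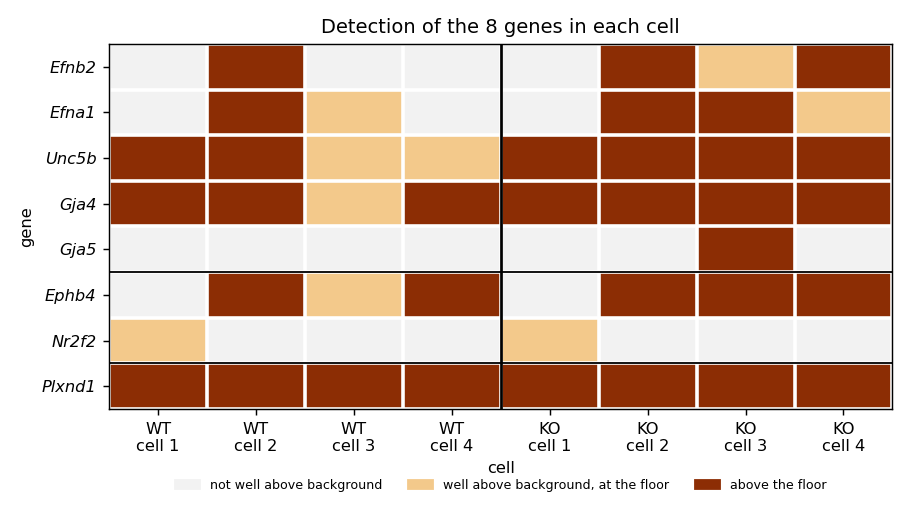
Detection of each gene by the 1 probe used for it (rows, arterial above the first line, venous between the lines) in each cell (columns), as not well above background (grey), well above background but at the floor (tan) or above the floor (brown). *Gja4*, *Unc5b* and *Plxnd1* were well above background in all 8 cells by these probes, and *Gja5* in 1.

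The number of arterial genes above the floor was 2, 4, 0 and 1 in WT cells 1 to 4. It was 2, 4, 4 and 3 in KO cells 1 to 4. WT cell 2 had as many as any KO cell, and WT cell 3 had none. Of all 8 genes, the WT cells 1 to 4 had 4, 6, 5 and 4 well above background (mean 4.75) and the KO cells 1 to 4 had 4, 6, 7 and 6 (mean 5.75). The number of all probes detected was lowest in WT cell 1, at 11370 with 4 genes, and highest in WT cell 4, at 18175 with 4 genes. KO cell 2 reached 6 genes with 12781 probes and KO cell 3 reached 7 with 16853. The part of detection depth in these counts was not tested. With 1 probe per gene, *Gja4*, *Unc5b* and *Plxnd1* were the 3 of 8 genes well above background in all 8 cells, against 32.1% of all genes. *Gja5* was so as well by its probe on AK038780, under the floor, but whether that probe reads the same transcript was not tested.

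*Ephb4* encodes the receptor of ephrin-B2 and is the venous partner of the pair. Its probe at chr5:137815646-137815705 on the plus strand (NM_001159571) read 5.64, 11.76, 5.64 and 6.62 in WT cells 1 to 4. It read 5.64, 5.75, 6.78 and 12.78 in KO cells 1 to 4. WT cell 2 and KO cell 4 were far above the rest. These were also the cells with the highest *Acta2* signal and with the most cardiomyocyte markers well above background, 7 of 9 in each. The part of these traits in the result was not tested. The means were 7.42 ± 2.93 (SD, n = 4) and 7.74 ± 3.40 (SD, n = 4), a difference of 0.32 against a pooled SD of 3.17. The difference was 1.77 without WT cell 2, -1.36 without KO cell 4 and 0.09 without both.

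A second *Ephb4* probe gave another picture. It lies 1943 bases upstream at chr5:137813703-137813762, and it read 11.19, 7.67, 5.64 and 8.59 in WT cells 1 to 4 but was at the floor in all 4 KO cells. The scanner called it well above background in WT cells 1, 2 and 4 and in KO cell 3. With the KO cells taken at the floor its difference was -2.63, with a pooled SD of 1.63, so that the floor sets its size and no exact fold is given. It was at least 5-fold lower in KO cells on this scale, as were 2.85% of the 26833 probes. WT cell 1, the brightest cell for the upstream probe, was at the floor for the downstream probe, and KO cell 4, the brightest cell for the downstream probe, was at the floor for the upstream probe. *Ephb4* therefore had no single direction, and the mean of both probes differed by -1.15. The probes of *Plxnd1* also disagreed, and the opening bases of all 4 are shown since the direction depends on the sequence read.
Ephb4 upstream probe: atacgaggaaagttttgcagcggctggatt
Ephb4 downstream probe: gtcaacagaggcagacaacggtgcttggaa
Plxnd1 upstream probe: agggaatttctgcttcagccaccaagcagt
Plxnd1 downstream probe: aggggaaggctgggactctctggaacattc

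*Nr2f2*, the nuclear receptor gene of venous identity, was at the floor in all 8 cells. Its probe at chr7:77496873-77496932 on the minus strand (NM_009697) was well above background in WT cell 1 and KO cell 1 only. The scaled signal, before the floor was set, was 20.1 in WT cell 1 and 2.2 to 4.0 in the other WT cells. It was 18.7 in KO cell 1, 19.5 in KO cell 2 and as low as 7.0 in KO cell 3. Any difference below the floor was not measurable here. Of the 7 other venous genes on a list of known markers, all were well above background in at least 1 cell, none was at least 5-fold higher or lower in KO cells, and the median difference was 0.67. Among them *Vwf*, the clotting factor gene of endothelium, differed by 2.08 with a pooled SD of 3.22, and *Smarca4*, a chromatin remodeler with a role in venous identity, by 1.37 with a pooled SD of 3.26. For both genes WT cell 1 was the only cell at the floor, and the differences rest on it. The other WT cells read 13.18 to 15.42 for *Vwf*, against 12.33 to 15.67 in KO cells. For *Smarca4* they read 12.93 to 14.71, against 10.88 to 15.09 in KO cells.

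*Plxnd1* encodes a semaphorin receptor that guides vessels in the embryo, and it was the most evenly detected of the 8 genes. Its downstream probe at chr6:115904829-115904888 on the minus strand (NM_026376) read 12.88, 13.02, 10.42 and 13.49 in WT cells 1 to 4. It read 13.31, 13.95, 14.49 and 13.69 in KO cells 1 to 4. Only WT cell 4 reached into the KO range, and WT cell 3 was the lowest. The means were 12.45 ± 1.38 (SD, n = 4) and 13.86 ± 0.49 (SD, n = 4), a difference of 1.41 or 2.65-fold with a pooled SD of 1.04. Without WT cell 3 the difference was 0.73. The probe 486 bases upstream, at chr6:115905315-115905374, read 12.44, 10.34, 11.76 and 11.57 in WT cells and 11.28, 10.28, 10.92 and 9.75 in KO cells. Its difference was -0.97, or 1.96-fold lower in KO cells, with a pooled SD of 0.78, and both probes were well above background in all 8 cells. The probes thus pointed in opposite directions without a cell at the floor, and their mean differed by 0.22.

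**Figure D3:**
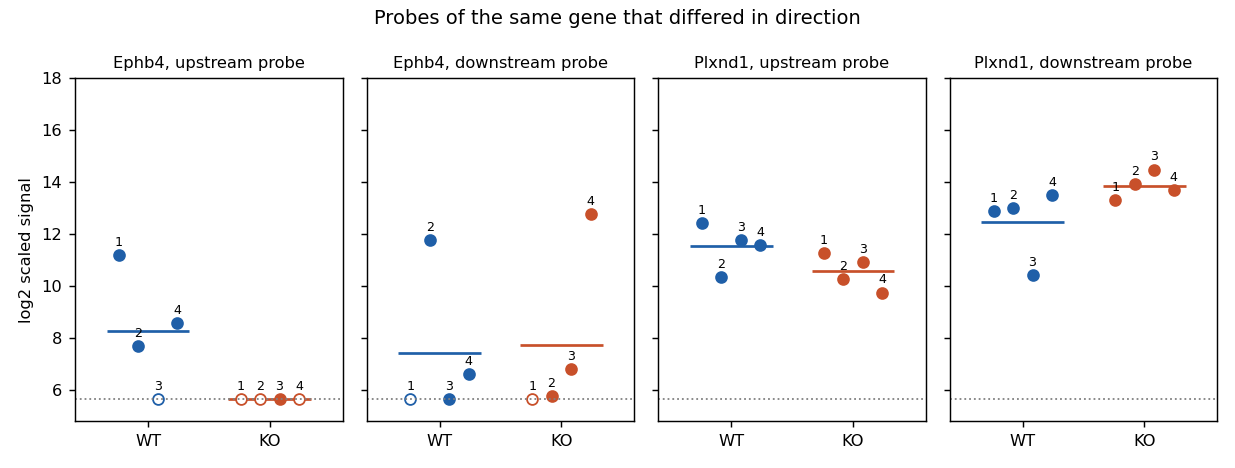
The log2 scaled signal (vertical axis) of both probes of *Ephb4* and both probes of *Plxnd1* in the 4 WT cells (blue) and 4 KO cells (orange), with cell numbers, means as bars, open points not well above background and a dotted line at the floor of 5.64. The upstream probes were lower in KO cells, by 2.63 and 0.97, and the downstream probes were higher, by 0.32 and 1.41.

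**Figure D4:**
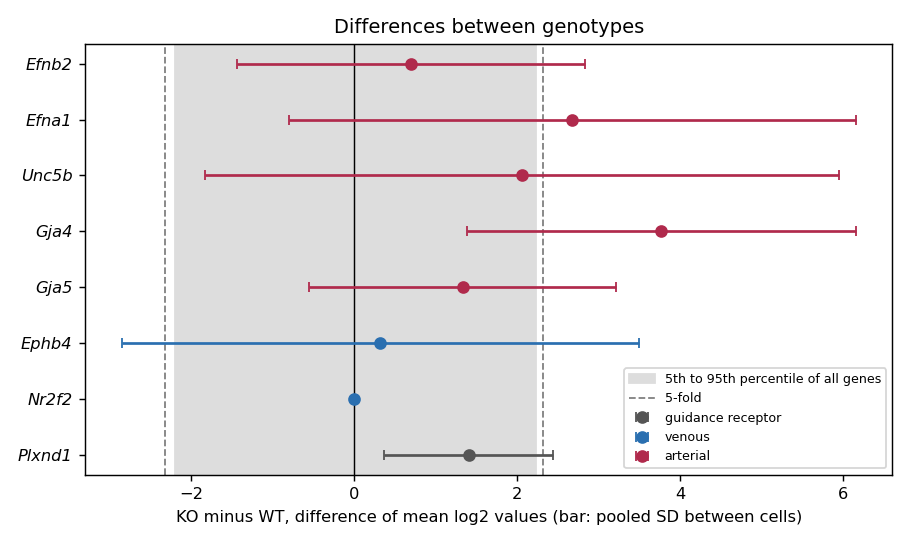
The KO minus WT difference of mean log2 values (horizontal axis) of each gene with its pooled SD between cells, for arterial genes (red), venous genes (blue) and *Plxnd1* (dark grey), over a grey band from -2.20 to 2.23 that leaves out the lowest and the highest 5% of the 14595 genes above the floor in any cell, with dashed lines at 5-fold. *Gja4* and *Efna1* lie above the band and the 5-fold line, and the SD of *Efna1* crosses 0.

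The SD between cells was larger than the difference in *Efnb2*, *Efna1*, *Unc5b*, *Gja5* and *Ephb4*, and smaller in *Gja4* and *Plxnd1*. Over the 14595 genes above the floor in any cell, the median pooled SD was 1.32, so that all arterial genes varied more from cell to cell than the median gene. Of those 14595 genes, 55.5% had a higher mean in KO cells.

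Arterial and venous genes were read in the same cells. *Efnb2* was above the floor in WT cell 2, KO cell 2 and KO cell 4, and in all 3 of them the downstream probe of *Ephb4* was above the floor as well. The 3 cells with *Efna1*, which were WT cell 2, KO cell 2 and KO cell 3, likewise all had *Ephb4*. *Gja4* and the same *Ephb4* probe were above the floor together in 5 cells, and *Gja4* and *Unc5b* in 6. These counts hold for the downstream probe of *Ephb4* only, and KO cell 2 passed the floor by little there, at 5.75 against 5.64. By the upstream probe of *Ephb4*, KO cells 2, 3 and 4 were at the floor while *Efnb2* or *Efna1* was above it, and WT cell 2 was the only cell in which *Efnb2* or *Efna1* was above the floor together with that probe.

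The other genes of arterial identity showed no common direction. Of 18 on a list of known arterial genes, 14 were well above background in at least 1 cell, 7 had a higher and 6 a lower mean in KO cells, and the median difference was 0.08. *Hey1*, a NOTCH target that encodes a transcriptional repressor, had the largest difference, at 6.84 with a pooled SD of 1.26. It was at the floor in 3 WT cells and read 8.27 in WT cell 4, whereas the KO cells lay between 12 and 14.61, and it was the only gene of the list whose genotypes did not overlap. *Nrp1*, a VEGF and semaphorin co-receptor gene, was named for being the only one of the list at least 5-fold lower, with a difference of -3.63 against the floor in all 4 KO cells. *Vegfc*, a lymphatic growth factor gene, differed by 2.21 and *Acvrl1*, a BMP receptor gene, by -1.54, both less than their pooled SDs of 2.48 and 2.84. *Notch1* was above the floor in KO cell 1 only, at 13.89, which gave a difference of 2.06.

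The families of the 8 genes showed few large differences. Of 19 other ephrin and Eph receptor genes, 10 were well above background in at least 1 cell and none differed by 5-fold. The largest difference among those read in all 4 cells of the brighter genotype was that of *Ephb6*, a kinase-dead Eph receptor, at 1.39 with a pooled SD of 2.71. It rests on KO cell 4, at 15.10, since KO cells 1 to 3 read 8.80, 8.52 and 7.36, within the WT range of 7.01 to 10.65. Of 17 other connexin genes, 6 were well above background in at least 1 cell and none differed by 5-fold. *Gja1*, the connexin gene of many muscle and connective tissue cells, was well above background in all 4 WT cells and in no KO cell, but only WT cell 1 (8.67) and WT cell 3 (6.87) exceeded the floor, and the difference was -1.06. Of 15 semaphorin and other plexin genes, 10 were well above background in at least 1 cell, and the median difference was -0.51. *Plxnb2*, a semaphorin receptor gene, was at least 5-fold higher in KO cells, with a difference of 2.56 and a pooled SD of 2.93, and the semaphorin gene *Sema3f* differed by -1.55 with a pooled SD of 2.79. Of 13 netrin, UNC5 and partner genes, 7 were well above background in at least 1 cell, none differed by 5-fold and the median difference was 0.00. The count of the list at least 5-fold higher was thus 0 of 10 for ephrin and Eph genes, 0 of 6 for connexins, 1 of 10 for semaphorins and plexins and 0 of 7 for netrin partners, against the 3.41% of all genes.

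**Figure D5:**
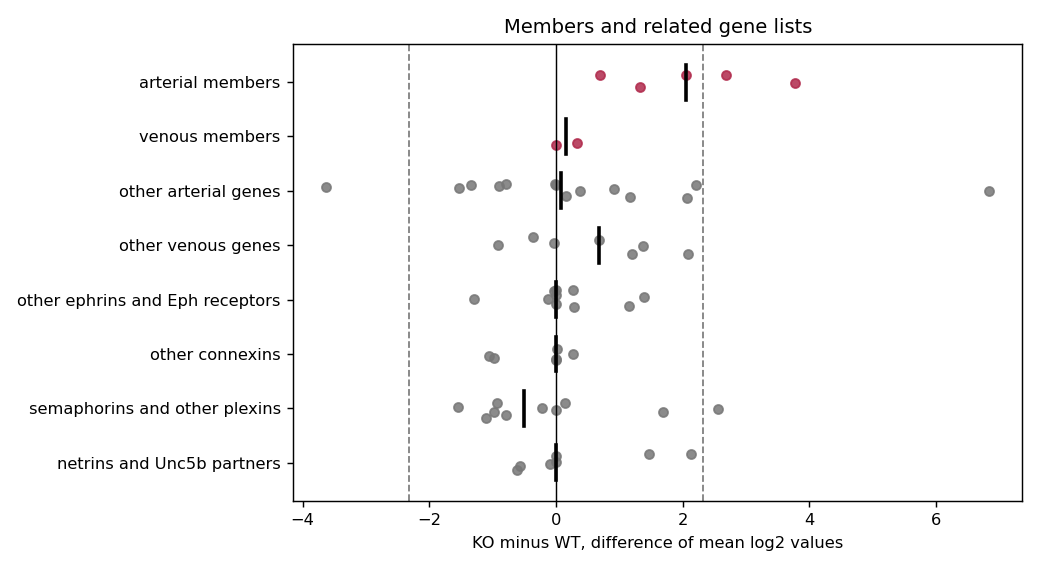
The KO minus WT difference of mean log2 values (horizontal axis) of the arterial and venous members (red) and of the genes of each related list that were well above background in at least 1 cell (grey), with black bars at list medians and dashed lines at 5-fold. All 5 arterial members lie above 0, whereas the other arterial genes spread on both sides around a median of 0.08.

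The genes whose pattern over the 8 cells was most like that of a member were found by Pearson's r among 4561 genes above the floor in at least 4 cells. For *Gja4* these were Gm12657 (r = 0.96), Gm10257 (0.95) and *Eif3k* (0.95), and for *Unc5b* they were *Cox4i1*, *Ina* and *Ephx3* (0.94 each). For the downstream probe of *Ephb4* they were *Tnpo1* (0.98), *Mki67* (0.97) and *Ufd1* (0.97), and for *Plxnd1* they were *Tomm6* (0.91), Gm12657 (0.88) and *Gja4* (0.87). The points of each r are the same 8 cells and share the floor and the scaling, and the best of so many genes is high by selection.

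Promoters of the 8 genes were read for 2 short motifs, the core bound by SOX factors (ACAAT, or ATTGT on the other strand) and the core bound by RBPJ, the DNA-binding partner of NOTCH (TGGGAA, or TTCCCA). The window was the 250 bases before each start in RefSeq (GRCm38.p6), with 9 promoters for the 8 genes. The SOX core stood in 1 of the 9, against 27.7% of 32851 promoters of the same length, and the RBPJ core stood in 0 of the 9, against 21.6%. The match lay in *Gja4*, the gene with the largest difference, and its window (chr4:127314040-127314289, minus strand) is shown for that reason with the ACAAT in capitals, which starts 86 bases before the gene's start.
Gja4 promoter: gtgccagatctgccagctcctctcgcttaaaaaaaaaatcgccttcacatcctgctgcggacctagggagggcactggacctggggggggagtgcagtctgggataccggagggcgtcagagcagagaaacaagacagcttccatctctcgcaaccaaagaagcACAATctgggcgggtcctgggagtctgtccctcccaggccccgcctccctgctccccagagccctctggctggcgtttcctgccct
Such a match is a description of the letters and not a site that was shown to be bound.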

How the data were processed

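Single endocardium cells (4 WT, 4 *Sox17* KO) were profiled on 8 arrays. cDNA of each cell was amplified by PCR and transcribed from a T3 promoter, which can drop a transcript from a cell or favour sequences near its 3' end. The authors deposited the scanner output of Agilent Feature Extraction 12.0.2.2 (design 028005, probes on mm9), whose intensity values are corrected for background within each array and not normalized between arrays. The GeneSpring steps of the methods had not been applied.

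Control spots and outlier flags were left out and spots of a probe were averaged, which kept 55295 of 55681 probes, among them all 13 probes of the 8 genes, none saturated. A probe was well above background where over 50% of its spots were. For scaling, the 7570 probes that were well above background on every array were used, and their 50th percentile was made equal between arrays. Lower signals were then raised to a floor of 50, and the log2 of the result was used. Genes were named by RefSeq accession for 28131 probes and otherwise by the file. A gene with several probes was given by the one with the highest mean over all arrays, and every probe of the 8 genes is described. From each list at most 4 genes were named, those with the largest difference among genes well above background in all 4 cells of the brighter genotype, and *Nrp1* was named after its values were seen. The 8 genes and all lists were chosen with earlier results of these data known. No test was run, since 4 cells of unnamed embryos are 1 sample. The number of arrays limits the precision. Whether a probe lies in coding sequence or a UTR was not analysed here. The alternatives were the 75th percentile, a percentile over all probes, the floor before scaling, quantile normalization, normexp with an offset of 50, a floor of 10 or of 200, averaging a gene's probes, other detection calls, leaving out each cell and, chosen after seeing the data, leaving out WT cell 2 and KO cell 4 together. The scaling, floor and difference steps were tested on simulated data. These varied less from cell to cell than the real cells and had changes planted in bright probes only. The test therefore does not show how well differences are found in genes near the floor. Python 3.11.15, numpy 2.4.6, pandas 2.3.3, matplotlib 3.10.9, R 4.3.3 and limma 3.58.1 were used.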

Additional observations from a re-analysis of the deposited data

Results flagged for a closer look

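In 5 of the 16 sets of 4 cells with any spread, 1 cell stood apart by Dixon's ratio, its gap to the nearest cell over the whole range, above the critical value for 4 values. Chance gives about 1 in 20 for sets of normally distributed values, or 0.8 of 16, but cells tied at the floor make the ratio high by construction. For WT cell 2 this held against 3 WT cells at the floor for *Efnb2* (10.01, ratio 1) and *Efna1* (10.10, ratio 1), and it was the highest WT cell for the downstream probe of *Ephb4* (11.76, ratio 0.84, with 2 cells at the floor). KO cell 4 was the highest KO cell for that *Ephb4* probe (12.78, ratio 0.841, with 1 cell at the floor). KO cell 3 was the only KO cell above the floor for *Gja5* (10.97, ratio 1).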

How the results depend on the processing

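The number of the 8 genes at least 5-fold higher in KO cells was 2. It was 1 with a floor of 200 and ranged from 1 to 3 when single cells were left out, with 1 without WT cell 3, WT cell 4, KO cell 2 or KO cell 3. No gene was at least 5-fold lower under any alternative. Of 136 single-gene values under the alternatives, 133 moved by less than the SD between cells or not at all. The 3 that moved further were *Nr2f2* (0.22 with a floor of 10 and 0.31 with normexp) and *Plxnd1* (0.22 with the mean of all probes). Leaving out 1 of 4 cells cannot move a difference by as much as that SD, so those values could not count as moved. For *Nr2f2* the SD was 0 because every cell was at the floor, so any change counted. *Ephb4* had a negative difference without WT cell 1, WT cell 3 or KO cell 4 (-0.27, -0.27 and -1.36) and with the mean of its probes (-1.15), and *Efnb2* without KO cell 4 (-0.01). The arterial median ranged from 1.06 (floor of 200) to 2.96 (without KO cell 4), and the venous median was lowest at -0.68 when KO cell 4 was left out and highest at 0.88 when WT cell 2 was. The 75th percentile moved the median of all genes from 0.09 to -0.08 and the arterial median to 1.74. The mean number of genes well above background was 4.75 in WT and 5.75 in KO cells, and 6 and 7.25 by the scanner's positive and significant call, but 6 and 6.5 when any probe of a gene was counted. In that last count *Gja5* was included in every cell through a probe whose signals all lay under the floor. No paired analysis was possible because no label pairs the cells. The floor, 4 cells per genotype and 1 slide limit every value above.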
